A study of Mus musculus with 6 samples.

Results

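The 10 genes described here are 8 immediate early transcription factors and regulators (Egr1, Fos, Fosb, Jun, Junb, Jund, Ier2 and Atf3) and 2 phosphatases of the mitogen-activated protein kinase (MAPK) pathway (Dusp1 and Dusp6). They were chosen by name, with earlier results of these data known. Where a gene had several probe sets annotated with it alone, the brightest on average was used. All 10 were measured, out of 22180 genes in all. RNA came from DP42, a murine multiple myeloma line, grown for 24 h without partner cells (alone) or beside B cells or neutrophils of mice, and each of the 3 groups held 2 arrays. All groups are the 1 line, with no genetic change named, and strain, age and the marker used for sorting are not given in the sources used here. The neutrophils appear in the labels as "neutrophils (IMC)" and in 1 field as myeloid cells. Flow cytometry separated the co-cultures before lysis, and the labels do not say whether the cells cultured alone were sorted too, so co-culture and sorting cannot be told apart in comparisons with culture alone. The labels do not state that replicate arrays stem from separate cultures, so the spread behind each p-value is that between arrays and may be technical.

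Immediate early genes are transcribed without new protein synthesis when a growth factor, cytokine, antigen or stress reaches the cell, largely through the ERK, JNK and p38 kinases acting on factors already bound at their promoters. Their transcripts usually appear within minutes and decay within hours, so a measurement after a day of culture reads a standing level and not the first wave. FOS and JUN proteins pair to form the AP-1 transcription factor. DUSP1 and DUSP6 remove phosphate from the kinases and so close the loop, DUSP1 in the nucleus mainly on p38 and JNK, and DUSP6 in the cytoplasm on ERK. In B-lineage cells the ERK arm follows the B-cell receptor and growth factor receptors.

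Of the 10 genes, 8 had an entry in the RefSeq promoter table of mouse build GRCm38.p6, the exceptions being Egr1 and Ier2. The 250 bases before the annotated start were searched on both strands for the whole cyclic AMP response element TGACGTCA, its short form TGACG (which the whole element contains on each strand), the AP-1 site TGANTCA, the EGR site GCGNGGGCG, the ETS site CCGGAAG and the CArG box of serum response factor. The short form was in 5 of the 8 promoters (Fos, Fosb, Junb, Atf3 and Dusp1), against 17.8% of 32841 promoters of that length. The whole element was in Dusp1 only among the 8 and in 1.55% of all promoters. The EGR site was in Fosb only, against 4.70% of all, and the AP-1 site, the ETS site and the CArG box were in 0 of the 8, against 6.75%, 6.91% and 1.47%. These matches describe the letters in this window and say nothing of binding. The promoters of Dusp1 (chr17:26508473-26508722, minus strand) and Fos (chr12:85473640-85473889, plus strand) are shown because both hold the short element in more than 1 place, while their values below differ: the neutrophil arrays lay above all others for Dusp1, and no groups separated for Fos, nor for Fosb, Jun, Junb and Atf3. Both are written 5′ to 3′ and end at the base before the start, and capitals mark the cyclic AMP response element, whole or short.
Dusp1: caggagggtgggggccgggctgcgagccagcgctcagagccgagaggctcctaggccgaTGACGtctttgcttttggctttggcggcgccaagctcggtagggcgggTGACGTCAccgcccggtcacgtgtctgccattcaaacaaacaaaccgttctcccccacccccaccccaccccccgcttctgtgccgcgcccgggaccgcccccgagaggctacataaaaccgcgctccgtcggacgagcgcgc
Fos: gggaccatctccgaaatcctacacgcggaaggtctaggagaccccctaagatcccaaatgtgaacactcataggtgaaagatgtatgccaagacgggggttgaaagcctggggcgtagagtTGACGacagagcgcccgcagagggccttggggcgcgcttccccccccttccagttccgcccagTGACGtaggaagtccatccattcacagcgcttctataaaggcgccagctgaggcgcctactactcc
In Dusp1 the whole element lay 143 to 136 bases before the start and a further short one 191 to 187 bases before it. In Fos the short form lay 129 to 125 and 66 to 62 bases before the start.

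The arrays were compared first as wholes. Values are log2 expression made by the authors with RMA (robust multi-array average), and a difference of 1 is 2-fold. B-cell replicate 2 stood apart: among the 11090 genes whose mean reached the median of all genes (7.30), here called the brighter genes, 56.6% had their lowest value of the 6 arrays in it. Its correlation across genes with its own replicate was 0.992, below the 0.996 between B-cell replicate 1 and neutrophil replicate 1. Where a difference moves by more than 1.5 times without it, that value is given too. Of the 9 B-cell markers measured, 6 (Cd79a, Cd79b, Pax5, Cd22, Blk and Cd37) were at 10.02 or above in all arrays, Pax5 at 10.94 to 11.08. The other 3 lay below the median of every array: Ms4a1 at 6.04 to 6.52, Cr2 at 6.12 to 6.95 and Fcer2a, below every lower quartile, at 5.63 to 5.89. Of the 7 plasma cell markers measured, Slamf7 (11.93 to 12.05), Irf4 (10.68 to 10.98) and Xbp1 (9.90 to 10.18) were bright. Sdc1 (8.38 to 8.67) and Cd28 (7.69 to 7.87) also lay above the median of every array. Prdm1 (6.70 to 6.97) lay below the median of every array and Tnfrsf17 (5.74 to 6.23) below the lower quartile of 5 arrays. In bulk RNA, fewer cells of a type and less RNA per cell cannot be told apart.

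With neutrophils, Dusp1 stood about 1.3-fold above both other groups. Egr1, Ier2 and Dusp6 stood up to 1.38-fold above 1 or both of them, with a wider spread between replicates than Dusp1. No gene of the 10 passed limma's test across all genes (Benjamini-Hochberg adjusted p under 0.05) in any of the 3 comparisons, where the share of all genes that passed was 0.0496% between the neutrophil and B-cell cultures, 1.49% between neutrophil culture and culture alone, and 0% between B-cell culture and culture alone. The differences of Fos, Fosb, Junb and Atf3 lay between -0.08 and 0.13 on the log2 scale in every comparison of all 6 arrays. In the neutrophil arrays the mean of 15 neutrophil markers was higher as well, at 7.02 and 7.05 against 6.48 to 6.61 in the 4 other arrays, and its part in these differences was not tested. B-cell replicate 2 was the lowest array for 8 of the 10 genes, all but Egr1 and Atf3, against 56.6% of the brighter genes. Neutrophil replicate 2 was the highest for 5, against 42.1% of the brighter genes.

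**Figure D1:**
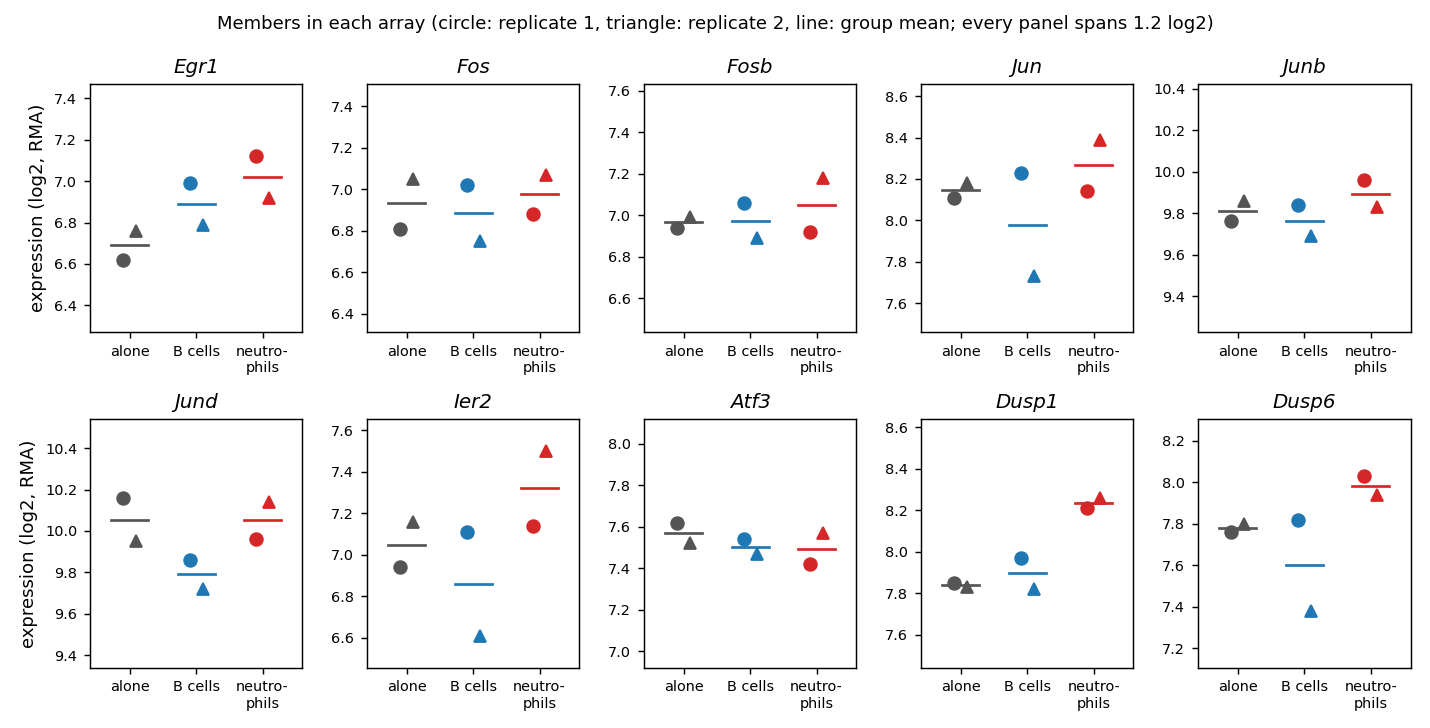
Expression of the 10 genes in each array (vertical axis, log2 RMA value; every panel spans 1.2) for the alone, B-cell and neutrophil groups. Circles are replicate 1, triangles replicate 2 and lines the mean of the 2 arrays; Dusp1 separates the neutrophil arrays (8.21 and 8.26) from all others (7.82 to 7.97), while Fos and Atf3 overlap across groups.

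Egr1 encodes a zinc-finger factor that ERK signalling induces through serum response factor. It stood at 6.62 and 6.76 in the alone arrays, 6.99 and 6.79 in the B-cell arrays, and 7.12 and 6.92 in the neutrophil arrays. Both co-cultures lay above both arrays of cells cultured alone, and the co-cultures overlapped each other. The difference was 0.33 ± 0.12 (SE) for neutrophils against alone (unadjusted p = 0.021, adjusted p = 0.207, limma) and 0.20 ± 0.12 for B cells against alone (adjusted p = 1), the latter 0.10 without B-cell replicate 1 and 0.13 without alone replicate 1. Neutrophils against B cells gave 0.13 ± 0.12 (adjusted p = 0.495). That value was 0.03 without B-cell replicate 2 or neutrophil replicate 1 and 0.23 without either of the other arrays of the 2 groups. All but 1 Egr1 value lay below the median of its array, where RMA compresses differences.

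Fos and Fosb encode FOS partners of AP-1, which bind DNA when paired with JUN proteins. Fos stood at 6.81 and 7.05 in the alone arrays, 7.02 and 6.75 in the B-cell arrays, and 6.88 and 7.07 in the neutrophil arrays. Fosb stood at 6.94 and 6.99, 7.06 and 6.89, and 6.92 and 7.18, in the same order. The groups overlapped in every comparison for both genes. Fos differed by 0.09 ± 0.13 for neutrophils against B cells, with a 95% interval of -0.21 to 0.39, and by 0.05 ± 0.13 for neutrophils against alone, with an interval of -0.26 to 0.35. For Fosb these differences were 0.08 ± 0.12 (-0.19 to 0.34) and 0.08 ± 0.12 (-0.18 to 0.35). The differences from B cells were -0.04 for Fos and -0.01 for Fosb without B-cell replicate 2. Each interval excludes a 1.5-fold difference (0.58 on the log2 scale) in either direction, though none shows that the levels were equal. All 6 Fos values and 5 of the 6 Fosb values were below their array's median, so the sizes may be understated.

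Jun, Junb and Jund encode the JUN partners, of which JUND is usually the most constant and JUNB can oppose JUN. Jun stood at 8.11 and 8.18 in the alone arrays, 8.23 and 7.73 in the B-cell arrays, and 8.14 and 8.39 in the neutrophil arrays. The gap between the B-cell replicates, 0.50, was larger than any difference between group means of this gene. Neutrophils against B cells gave 0.29 ± 0.16 (adjusted p = 0.323, limma), which was 0.03 without B-cell replicate 2 and 0.54 without B-cell replicate 1. Junb stood at 9.76 and 9.86 in the alone arrays, 9.84 and 9.69 in the B-cell arrays, and 9.96 and 9.83 in the neutrophil arrays, and the groups overlapped. Its differences from B cells and from alone were 0.13 ± 0.10 and 0.08 ± 0.10. The former was 0.06 without B-cell replicate 2 or neutrophil replicate 1 and up to 0.21 without B-cell replicate 1. The latter was 0.01 without neutrophil replicate 1 and 0.03 without alone replicate 1.

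Jund stood at 10.16 and 9.95 in the alone arrays, 9.86 and 9.72 in the B-cell arrays, and 9.96 and 10.14 in the neutrophil arrays. The B-cell arrays lay below all 4 others, by 0.26 ± 0.12 against each of the other groups (unadjusted p = 0.0504 against neutrophils and 0.0527 against alone; adjusted p = 0.25 and 1, limma). The difference was 0.17 without neutrophil replicate 2 in the first comparison, and -0.15 (B cells minus alone) without alone replicate 1 in the second. A second Jund probe set did not repeat this order. It stood at 7.20 and 7.52 in the alone arrays, 7.48 and 7.42 in the B-cell arrays, and 7.55 and 7.62 in the neutrophil arrays, with B cells 0.09 ± 0.12 above alone. Over the 6 arrays the 2 probe sets correlated at r = -0.12, so the position of the B-cell group depends on the probe set.

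Ier2 encodes a small nuclear protein whose transcript is induced with the FOS genes. It stood at 6.94 and 7.16 in the alone arrays, 7.11 and 6.61 in the B-cell arrays, and 7.14 and 7.50 in the neutrophil arrays. It had the widest range over the arrays of the 10 genes, 0.89, and its replicates differed by up to 0.50. Neutrophils lay above B cells without overlap, by 0.46 ± 0.18 or 1.38-fold (unadjusted p = 0.0324, adjusted p = 0.225, limma), and overlapped culture alone, with a difference of 0.27 ± 0.18 (adjusted p = 0.440). The first difference was 0.21 without B-cell replicate 2 (adjusted p = 0.717), 0.71 without B-cell replicate 1 (adjusted p = 0.0356), and 0.28 without neutrophil replicate 2. The difference from culture alone was 0.09 without neutrophil replicate 2, 0.45 without neutrophil replicate 1 and 0.16 without alone replicate 1.

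Atf3 encodes a stress-induced factor of the ATF family, a target of ATF4 and of MAPK signalling. It stood at 7.62 and 7.52 in the alone arrays, 7.54 and 7.47 in the B-cell arrays, and 7.42 and 7.57 in the neutrophil arrays. It was the member with the narrowest range, 0.20, and all 3 groups overlapped. The differences were -0.01 ± 0.10 for neutrophils against B cells (-0.04 without B-cell replicate 2) and -0.08 ± 0.10 for neutrophils against alone, and the latter's 95% interval ran from -0.30 to 0.15. It was the 1 gene of the 10 with a mean lower with neutrophils than in each of the other groups, with quantile normalisation or median centring giving the opposite sign against B cells (0.05 and 0.08).

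Dusp1 encodes the nuclear phosphatase MKP-1. It stood at 7.85 and 7.83 in the alone arrays, 7.97 and 7.82 in the B-cell arrays, and 8.21 and 8.26 in the neutrophil arrays. The neutrophil arrays lay above all 4 others, and culture alone and B cells overlapped. Against culture alone the difference was 0.40 ± 0.10, or 1.31-fold, with a 95% interval of 0.18 to 0.61 (unadjusted p = 0.00293, adjusted p = 0.0931, limma). Against B cells it was 0.34 ± 0.10, or 1.27-fold, with an interval of 0.12 to 0.56 (unadjusted p = 0.00694, adjusted p = 0.165). B cells against alone gave 0.06 ± 0.10 (adjusted p = 1), and 0.13 without B-cell replicate 2. The neutrophil marker mean given above was higher in the same arrays as Dusp1.

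The Dusp1 difference kept its sign in every setting able to move it. These were quantile normalisation, median centring and leaving out an array of a compared group. It ran from 0.37 to 0.46 against alone and from 0.27 to 0.43 against B cells. The other settings cannot move the Dusp1 difference. Whether it passed depended on the arrays fitted. When only the 4 neutrophil and alone arrays were fitted, which is what leaving out either B-cell array amounts to here, its adjusted p was 0.0316 and 6.03% of all genes passed. Without an alone or a neutrophil array the adjusted p was 0.296 to 0.466. Against B cells it passed without B-cell replicate 1 (adjusted p = 0.0264), where 24.6% of all genes passed as well, and in no other setting.

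Dusp6 encodes the cytoplasmic ERK phosphatase MKP-3, often used as a readout of ERK activity. It stood at 7.76 and 7.80 in the alone arrays, 7.82 and 7.38 in the B-cell arrays, and 8.03 and 7.94 in the neutrophil arrays. The neutrophil arrays lay above all 4 others, while B-cell replicate 2 lay 0.44 below its own replicate. The difference was 0.38 ± 0.14 against B cells (1.31-fold, unadjusted p = 0.0234, adjusted p = 0.208, limma) and 0.20 ± 0.14 against alone (adjusted p = 0.448). Without B-cell replicate 2 the former was 0.17, and without B-cell replicate 1 it was 0.60 (adjusted p = 0.0178). A second Dusp6 probe set was below the lower quartile of all 6 arrays (5.67 to 5.95), a range in which signal may be background, and correlated with the first at r = -0.01.

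**Figure D2:**
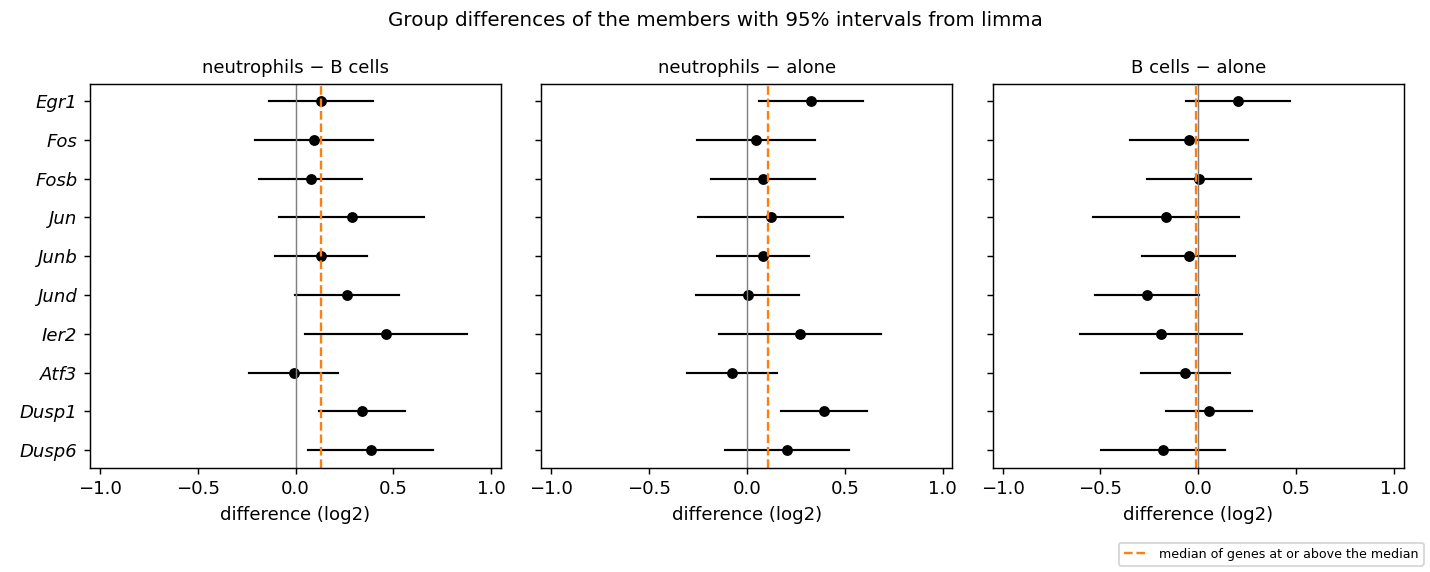
Difference between groups for each gene (horizontal axis, log2; point, limma estimate; line, 95% interval) in the 3 comparisons, with 2 arrays a group. The dashed line is the median of the 11090 brighter genes. Of the 30 intervals 5 exclude 0, among them those of Dusp1 in both comparisons with neutrophils, and no interval reaches 1 in either direction. Against B cells the Dusp1 interval (0.12 to 0.56) includes the dashed line at 0.13.

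Neutrophil co-culture was compared with B-cell co-culture, the control named in the design, to ask what neutrophils in particular change. In limma's test 0 of the 10 genes passed, where 0.0496% of all 22180 genes did. At an unadjusted p under 0.05, 3 were higher (Ier2, Dusp1 and Dusp6) and 0 lower, against 8.10% and 12.0% of all genes. Among the brighter genes these shares were 14.4% and 3.93%. The neutrophil arrays lay above the B-cell arrays without overlap for 4 (Jund, Ier2, Dusp1 and Dusp6), against 30.0% of all genes and 52.1% of the brighter ones. They lay below the B-cell arrays for 0, against 26.7% of all genes and 10.6% of the brighter ones. The median difference of the 10 was 0.20 with 9 positive, beside 0.01 over all genes and 0.13 over the brighter genes, of which 80.1% were positive. For the 6 members among the brighter genes it was 0.28 with 5 positive. Without B-cell replicate 2 the median of the 10 was 0.04 and that of the brighter genes 0.055. Without B-cell replicate 1 these were 0.28 and 0.20, and 4 of the 10 passed (Jun, Ier2, Dusp1 and Dusp6), where 24.6% of all genes did.

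Against culture alone 0 of the 10 genes passed with neutrophils, where 1.49% of all genes did. At an unadjusted p under 0.05, Egr1 and Dusp1 were higher and 0 lower, against 5.97% and 11.7% of all genes. Among the brighter genes these shares were 9.59% and 2.71%. The arrays did not overlap, with neutrophils above, for Egr1, Dusp1 and Dusp6, against 35.6% of all genes and 60.1% of the brighter ones. Neutrophils lay below without overlap for 0, against 27.4% of all genes and 9.86% of the brighter ones. The median difference was 0.10 with 9 positive, beside 0.02 over all genes and 0.11 over the brighter genes. For the 6 members among the brighter genes it was 0.10 with 5 positive. This comparison and the first share the neutrophil arrays, so their values are not independent of each other. Without neutrophil replicate 2 the median of the 10 was 0.05 with 5 positive, beside 0.09 over the brighter genes. Without neutrophil replicate 1 it was 0.18 with 10 positive, beside 0.12, and without alone replicate 2 it was 0.16 with 8 positive, beside 0.11.

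For B-cell co-culture against culture alone 0 of the 10 genes passed in limma's test, as did 0% of all genes. At an unadjusted p under 0.05, 0 were higher and 0 lower, against 1.61% and 2.30% of all genes. Egr1 lay above culture alone without overlap and Jund below it, each against 13.5% of all genes in that direction. The median difference was -0.06 with 7 negative, beside -0.0015 over all genes and -0.01 over the brighter ones. For the 6 members among the brighter genes it was -0.12 with 5 negative. The median of the 10 was 0.07 without B-cell replicate 2, with 8 positive, and -0.15 without B-cell replicate 1, with 1 positive. Without B-cell replicate 2 the differences of Fos, Jun, Junb, Ier2 and Dusp6 turned from negative (-0.19 to -0.05) to positive (0.03 to 0.09), and Egr1 stood at 0.30.

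**Figure D3:**
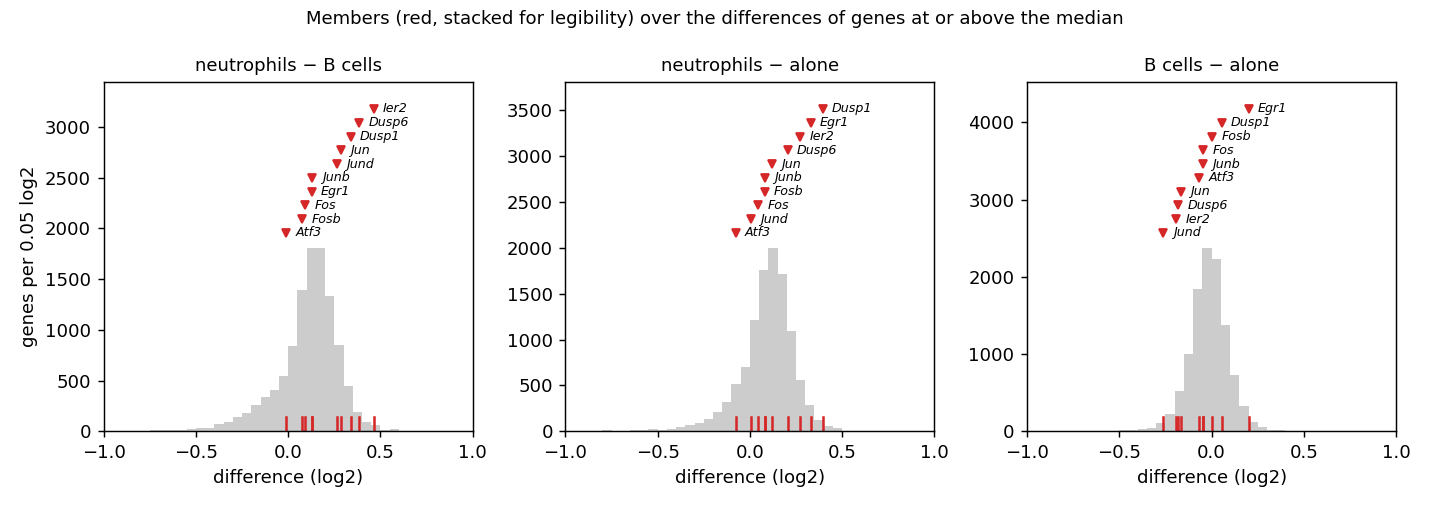
Differences of the brighter genes (grey, genes per 0.05 log2 on the vertical axis; horizontal axis, difference in log2, genes beyond 1 in either direction not drawn) with the 10 genes as red ticks, repeated as stacked, named markers above the bars. The bulk of brighter genes is shifted above 0 in both comparisons with neutrophils, to medians of 0.13 and 0.11. The members spread around that shift, from -0.01 to 0.46 and from -0.08 to 0.40. Egr1, Fos, Fosb and Ier2 are drawn as well, though they are not among the brighter genes.

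The 95% intervals set how large a difference these arrays could hide. Across the 30 intervals of 10 genes in 3 comparisons, 0 reached a 2-fold difference and 7 reached 1.5-fold. The widest reach was that of Ier2, from -0.60 for B cells against alone to 0.88 for neutrophils against B cells. A difference of 1.3-fold (0.38 on the log2 scale) was reached by 17 of the 30 intervals, so these arrays cannot exclude it there. The intervals are those of single genes and are not adjusted for their number.

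The replicates differed in a shared way. B-cell replicate 1 exceeded replicate 2 in all 10 genes, by a median of 0.19, as it did in 76.6% of the brighter genes, by a median of 0.13. The largest of these gaps were 0.50 in Jun, 0.50 in Ier2 and 0.44 in Dusp6. Neutrophil replicate 1 minus replicate 2 had a median of -0.17 over the 10 genes, with 3 above 0, beside -0.02 over the brighter genes. As a mean of deviations from each gene's own mean, the 10 genes stood at -0.05 and 0.00 in the alone arrays, 0.03 and -0.22 in the B-cell arrays, and 0.07 and 0.17 in the neutrophil arrays. The brighter genes, by median, followed a similar order at -0.03 and -0.03, 0.02 and -0.12, and 0.07 and 0.09.

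**Figure D4:**
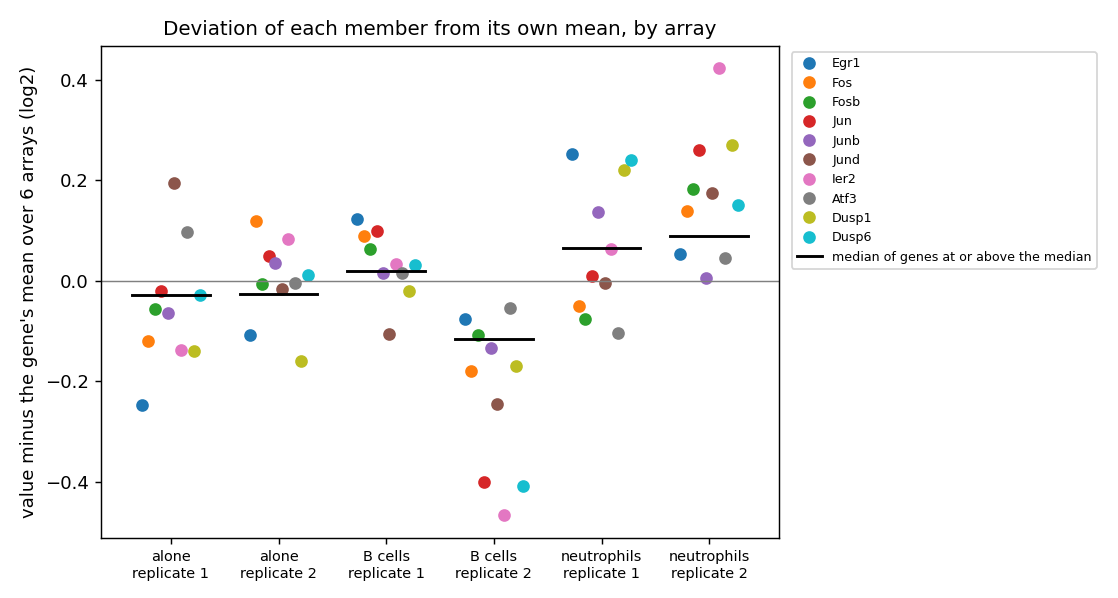
Deviation of each gene from its own mean over the 6 arrays (vertical axis, log2), by array, with the median deviation of the brighter genes as a black line. B-cell replicate 2 holds the lowest points, near -0.4 or below for Jun, Ier2 and Dusp6, and its black line is the lowest as well, at -0.12.

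Among themselves the genes varied together in most pairs. Of 45 pairs, 40 correlated positively over the 6 arrays, with a median r of 0.55. The highest was between Jun and Ier2 (r = 0.96) and the lowest between Egr1 and Atf3 (r = -0.67). The brighter genes as a set also shifted between arrays, so these values describe 6 arrays and not regulation. For the mean profile of the 6 members among the brighter genes, the 5 most similar of 11084 other brighter genes were Pdxp, Acly, Llgl1, Umps and Cd55, each at r = 0.997 or more. A correlation above 0.9 with that profile was found in 21.0% of those genes. For Ier2 the 3 most similar were Golga7, Fez2 and Sypl, at 0.995 or more, and 11.1% of candidates were above 0.9.

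A further 6 lists of related genes were read in the same fit, with 102 of 113 listed genes measured, and 0 of the 102 passed in any comparison of all 6 arrays. Without B-cell replicate 1, 39 of the 102 (38.2%) passed for neutrophils against B cells, 30 of them higher, where 24.6% of all genes did. Leaving out either B-cell array, 4 passed against alone with neutrophils (Plk3, Spred2, Etv5 and Map2k6), or 3.92%, where 6.03% of all genes did. Without B-cell replicate 2 the 6 list medians against B cells ran from 0.04 to 0.11, in place of 0.05 to 0.23, and 0 genes passed. The 35 other immediate early genes had a median difference of 0.12 for neutrophils against B cells (0.04 without B-cell replicate 2), with 26 positive. For neutrophils against alone it was 0.09, with 30 positive. Among the brighter genes 80.1% and 79.7% were positive. At an unadjusted p under 0.05, 3 were higher and 1 lower than with B cells, against 8.10% and 12.0% of all genes. Compared with alone 6 were higher and 1 lower, against 5.97% and 11.7%. Plk3, a stress-responsive polo-like kinase, stood at 7.77 and 7.67 in the alone arrays, 7.79 and 7.46 in the B-cell arrays, and 8.10 and 8.15 in the neutrophil arrays. Its difference of 0.50 ± 0.12 from B cells (adjusted p = 0.146, limma) and 0.40 ± 0.12 from alone (adjusted p = 0.160) was the highest of the list in both, the former being 0.33 without B-cell replicate 2. Ptgs2, the inducible cyclooxygenase, lay lowest at -0.39 ± 0.14 and -0.36 ± 0.14 (adjusted p = 0.207 and 0.241) and was below the lower quartile of 2 arrays. These were -0.21 without B-cell replicate 2 and -0.23 without alone replicate 2. For B cells against alone the list's median was 0.01, or -0.03 without B-cell replicate 1 and 0.05 without B-cell replicate 2. The largest differences were -0.25 ± 0.12 for Ier5 and -0.24 ± 0.17 for Csrnp1. They were -0.13 and 0.03 without B-cell replicate 2, so the sign of Csrnp1 rests on that array.

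The 8 other MAPK phosphatases held values of both signs. Their differences ran from -0.34 to 0.22 for neutrophils against B cells (median 0.12, 5 positive) and from -0.14 to 0.24 against alone (median 0.09, 6 positive). The former median was 0.05 without B-cell replicate 2. Dusp8, a phosphatase of JNK and p38, stood at 7.19 and 7.19 in the alone arrays, 7.40 and 7.38 in the B-cell arrays, and 7.06 and 7.05 in the neutrophil arrays. The neutrophil arrays were thus the lowest, by -0.34 ± 0.09 against B cells (unadjusted p = 0.00455, adjusted p = 0.151, limma). Dusp5, a nuclear ERK phosphatase, stood 0.22 ± 0.12 above B cells (0.07 without B-cell replicate 2), and Dusp7 and Dusp10 stood 0.24 ± 0.11 and 0.19 ± 0.09 above alone, beside 0.20 for Dusp6. Dusp4 differed by 0.17 ± 0.11 for B cells against alone, and by 0.06 without B-cell replicate 2.

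Genes that ERK activity is known to induce or that restrain it gave mixed values. Of the 14 feedback and output genes, 8 were positive against B cells (median 0.18) and 9 against alone (median 0.12). The former median was 0.08 without B-cell replicate 2. Etv5, an ETS factor induced by ERK, stood at 6.85 and 7.14 in the alone arrays, 7.38 and 7.20 in the B-cell arrays, and 7.55 and 7.50 in the neutrophil arrays. Both co-cultures lay above culture alone, by 0.54 ± 0.12 with neutrophils (unadjusted p = 0.00186, adjusted p = 0.0746, limma) and 0.30 ± 0.12 with B cells (adjusted p = 1), the latter 0.15 without alone replicate 1. Spred2, an inhibitor of RAS signalling, stood at 8.76 and 8.73, 8.89 and 8.67, and 9.11 and 9.15 in the same order. It was 0.39 ± 0.10 above alone and 0.35 ± 0.10 above B cells with neutrophils (adjusted p = 0.121 and 0.174). Spry2, another ERK feedback inhibitor, lay the other way, at -0.31 ± 0.11 against B cells (adjusted p = 0.208), and Spry1 stood 0.21 ± 0.10 above alone with B cells. These were -0.18 and 0.13 without B-cell replicate 2.

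The kinase cascades themselves lay slightly above 0 with neutrophils. Of 15 measured genes from RAS to ERK and its effectors, 14 were positive against B cells (median 0.17) and 14 against alone (median 0.15). The former median was 0.11 without B-cell replicate 2. Of the brighter genes 80.1% and 79.7% were positive in these comparisons. The largest differences from B cells were those of Map2k2, which encodes the ERK kinase MEK2 (0.34 ± 0.10, adjusted p = 0.177), and Mknk1 (0.33 ± 0.10, adjusted p = 0.169). Against alone they were those of the ETS factor Elk3 (0.28 ± 0.09) and Rps6ka5 (0.24 ± 0.10). Of 15 genes of the JNK and p38 cascades, 13 and 12 were positive, with medians of 0.23 and 0.19. The former median was 0.11 without B-cell replicate 2. Map2k6, a p38 kinase kinase, stood at 7.96 and 7.95 in the alone arrays, 8.15 and 7.86 in the B-cell arrays, and 8.35 and 8.32 in the neutrophil arrays (0.38 ± 0.11 against alone, adjusted p = 0.154). Map2k3 stood 0.36 ± 0.14 above B cells (0.145 without B-cell replicate 2 and 0.58 without B-cell replicate 1), and Mapk11, which encodes p38 beta, 0.34 ± 0.12 above alone.

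The 15 measured bZIP partners of AP-1 had the lowest medians of the lists with neutrophils, 0.05 against B cells and 0.04 against alone, the latter -0.0008 and -0.0020 without 1 or the other alone array. Batf3 lay lower with neutrophils in both, at -0.26 ± 0.11 and -0.25 ± 0.11 (adjusted p = 0.241 and 0.280, limma), the former -0.15 without B-cell replicate 2. Mafk stood 0.30 ± 0.16 above B cells, but 0.07 without B-cell replicate 2, 0.15 without neutrophil replicate 2 and 0.53 without B-cell replicate 1. Ddit3, the stress factor CHOP, stood 0.24 ± 0.10 above alone. For B cells against alone the medians of the 5 lists other than the immediate early genes ran from -0.03 to 0.05, and from 0.02 to 0.10 without B-cell replicate 2.

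**Figure D5:**
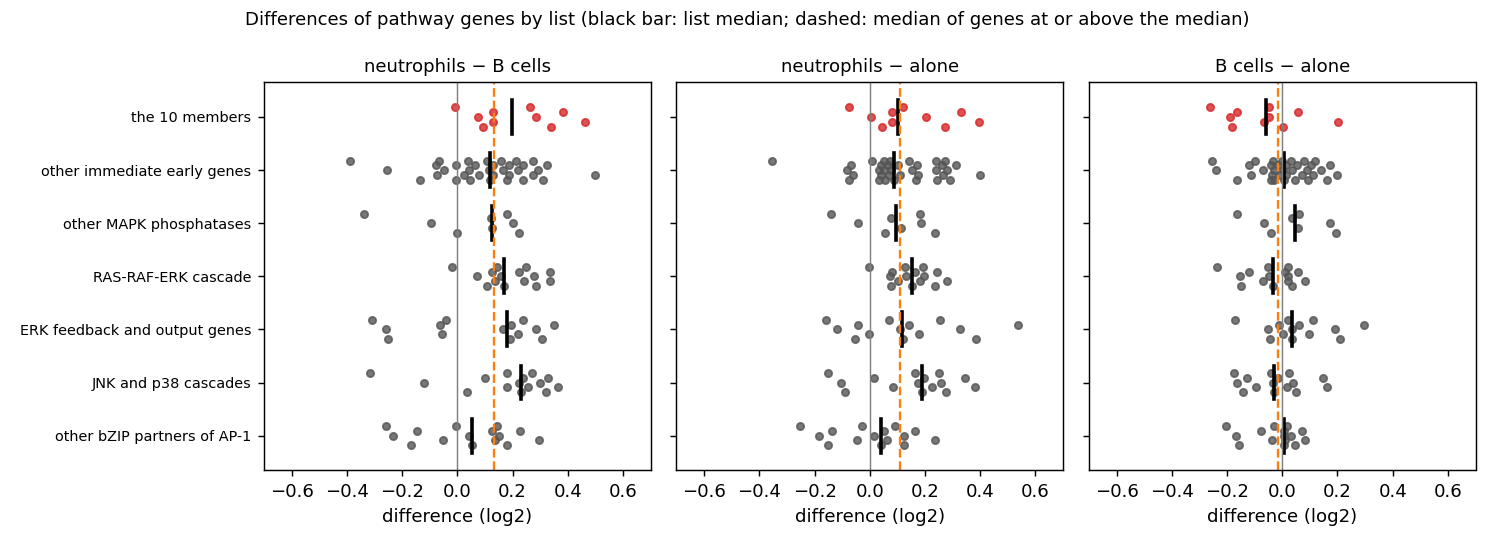
Differences of single genes (points; horizontal axis, log2) in the 10 members (red) and 6 lists of related genes (grey), with each list's median as a black bar and the median of the brighter genes dashed. List medians lie between 0.04 and 0.23 in both comparisons with neutrophils, on either side of the dashed line.

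Neutrophil markers moved with the neutrophil group. All 15 listed were measured, and their mean per array was 6.48 and 6.57 in the alone arrays, 6.54 and 6.61 in the B-cell arrays, and 7.02 and 7.05 in the neutrophil arrays. Of the 15, 5 passed against alone (S100a8, Ngp, Lcn2, Retnlg and Elane) and 1 against B cells (Ngp), all higher. Ly6g, which defines mouse neutrophils, was below the lower quartile of all 6 arrays. The monocyte markers, 9 measured, had means of 7.53 to 7.70 in the other arrays and 7.77 and 7.74 with neutrophils. Of these only Ly6c2 passed, in both comparisons. The median difference of the 9 was -0.02 against alone, with 4 positive and 5 negative. Against B cells it was 0.03, with 6 positive and 3 negative. The B-cell markers, 9 of 10 measured, had means of 9.55 and 9.62 with B cells, 9.56 to 9.61 alone and 9.53 in both neutrophil arrays. Cr2 stood at 6.22 and 6.12 with neutrophils and 6.62 to 6.95 in the other arrays. The mean of the T and NK cell markers lay between 6.74 and 6.94 in all arrays. Neutrophils and monocytes also express immediate early genes and Dusp1, and the part of such RNA in the values above was not tested.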

How the data were processed

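The deposited table holds log2 expression values per probe set, 1 column per array, which the authors made with RMA, per the submitters' processing notes; the array model, software version and annotation build are not given in the sources used here. The log2 scale was read from the values (3.04 to 14.03), and further centring is not stated. RMA commonly evens out shifts shared by all genes, though the array medians still ran from 7.09 to 7.22, and the number of arrays limits the precision.

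Of 41345 probe sets, 23521 carried 1 gene in the platform annotation, 1814 several and 16010 none here. The gene identifier of 23328 was found in the RefSeq gene table. The brightest probe set per gene gave 22180 genes.

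Group means were fitted with limma 3.58.1 (R 4.3.3) to all 6 arrays (3 residual and 5.55 prior degrees of freedom), with eBayes, two-sided tests and Benjamini-Hochberg adjustment over all genes at 0.05. The procedure was run on simulated data for neutrophils against alone. The simulated noise was independent, without a shift shared by the genes of an array. The simulation therefore cannot show how such shifts affect the test.

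The members and lists were chosen with earlier results of these data known. Named genes outside the 10 are, per list and comparison, the 2 with the largest absolute difference, or any that passed; similar genes are the 5 or 3 with the highest Pearson correlation. Alternatives were quantile normalisation, median centring, eBayes with trend and robust settings, averaged probe sets, a filter on dim genes, fits of 4 arrays, a replicate block, leaving out each array and a threshold of 0.10. Leaving out each array for the related genes was added after seeing the data.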

Additional observations from a re-analysis of the deposited data

How the results depend on the processing

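Of 408 values of the 10 genes under alternatives, 372 kept their direction and their side of the threshold, 8 newly passed and 28 changed sign, the largest of the latter being -0.10. Many of these settings cannot move a difference, so its direction was fixed in advance there and the total kept does not measure robustness. They are eBayes with trend and robust settings, the dim-gene filter, fits of 4 arrays, the replicate block and the threshold. Leaving out an array of the group not compared belongs with them. The count of 0 genes passed became 1 (Dusp1) for neutrophils against alone with only the 4 arrays compared or with a threshold of 0.10. Leaving out each array in turn it was 0 to 1 there, 0 to 4 for neutrophils against B cells and 0 for B cells against alone. The medians of the 10 then ranged over 0.045 to 0.28 for neutrophils against B cells and -0.15 to 0.074 for B cells against alone, the 0.045 and the 0.074 being without B-cell replicate 2. Sign changes other than by leaving out an array were, with quantile normalisation, 0.053 for Atf3 against B cells, -0.0009 for Junb and -0.082 for Jund against alone, and -0.020 for Fosb in B cells against alone. With median centring they were 0.077 for Atf3 against B cells and -0.016 for Fosb in B cells against alone. Further sign changes came from leaving out arrays. For neutrophils against B cells they ranged over -0.089 to 0.0695 for Atf3, -0.041 to 0.23 for Fos and -0.051 to 0.20 for Fosb. For neutrophils against alone they ranged over -0.16 to 0.0031 for Atf3, -0.074 to 0.17 for Fos, -0.046 to 0.21 for Fosb, -0.0015 to 0.24 for Jun and -0.10 to 0.11 for Jund. For B cells against alone they ranged over -0.018 to 0.13 for Dusp1, -0.40 to 0.037 for Dusp6, -0.18 to 0.087 for Fos, -0.082 to 0.091 for Fosb, -0.44 to 0.061 for Ier2, -0.42 to 0.087 for Jun and -0.12 to 0.026 for Junb. Of 216 values of the related genes without 1 array, 193 kept direction and side, 20 newly passed and 3 changed sign, all for B cells against alone, with ranges of -0.51 to 0.030 for Csrnp1, -0.39 to 0.043 for Map2k3 and -0.43 to 0.026 for Mafk. For the related genes too, leaving out an array of the group not compared could not move a difference. With the replicate number as a block the counts stayed 0, 0 and 0, and Dusp1 had adjusted p = 0.118 against alone and 0.181 against B cells (limma). Deviations of same-numbered arrays correlated across genes at -0.074, 0.065 and -0.15. These values cannot show whether same-numbered arrays were prepared together, since each group held only 2 arrays. With 2 arrays a group, the causes of these changes were not tested, and dim genes (Egr1, Fos, Fosb and Ier2) may have understated differences.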
